A study of Mus musculus with 6 samples.

Results

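The genes described here are 10 factors, sensors and target genes of the cellular response to low oxygen. They were chosen by name, with earlier results of these data known. They are Hif1a, Epas1, Egln1, Egln3, Ndrg1, Vegfa, Bnip3, Adm, Ankrd37 and Car9, which are 10 of the 19330 genes in the table. RNA sequencing was done on 6 mouse libraries. They came from 2 induced pluripotent stem cell (iPSC) lines labelled with palmitoylcarnitine (PC iPSC 5 and 13), 2 normal iPSC lines (control iPSC 3 and 7), 1 embryonic stem cell library (ESC, titled B6) and 1 mouse embryonic fibroblast library (MEF). Per the labels' protocols, ESC and iPSC grew in 15% serum with leukemia inhibitory factor, on a layer of mitomycin C-treated fibroblasts, and MEF grew in 10% serum without that layer. The labels give no oxygen level, age, reprogramming method or clone history, and no dose of palmitoylcarnitine. Separate animals or cultures are not stated for the lines, and each p-value below therefore covers no more than library-to-library spread, which may be technical.

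Cells sense oxygen through the HIF transcription factors. The alpha subunits HIF-1 alpha (Hif1a) and HIF-2 alpha (Epas1) are made all the time, and while oxygen is plentiful the prolyl hydroxylases of the Egln family mark them for ubiquitination by the VHL complex and for destruction. When oxygen is short the subunits last, pair with Arnt and switch on genes for glucose use, blood vessel growth, mitophagy and acid balance. Much of this control acts on the protein, so RNA levels of Hif1a and Epas1 do not show how active the factors were. Egln3, Egln1, Ndrg1, Vegfa, Bnip3, Adm, Ankrd37 and Car9 are known targets of the pathway, and Egln1 and Egln3 feed back on it.

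The promoters of Bnip3, Ankrd37, Egln1 and Egln3 are shown because these genes were lower together in iPSC than in ESC. Ndrg1 was lower too, but no promoter sequence was available for it. The promoter of Car9 is shown because it carries the same letters and the gene was not called lower. Hif1a and Vegfa also carry ACGTG, in windows at starts inside their annotated spans, and were not called lower. Each window runs from 250 bases before the annotated start to 50 bases after it, on GRCm38.p6, from RefSeq, 5′ to 3′ on the gene's strand. Capitals mark ACGTG and GCGTG, the letters at the core of HIF binding sites, on either strand (CACGT and CACGC on the strand shown).
Bnip3, chr7:138909457-138909756, minus strand: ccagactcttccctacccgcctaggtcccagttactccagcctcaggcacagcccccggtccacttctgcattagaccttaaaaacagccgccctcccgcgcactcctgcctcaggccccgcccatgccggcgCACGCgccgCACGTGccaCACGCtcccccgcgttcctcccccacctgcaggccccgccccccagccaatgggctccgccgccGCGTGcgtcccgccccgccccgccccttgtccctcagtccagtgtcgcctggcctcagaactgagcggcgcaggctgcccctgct
Ankrd37, chr8:45999801-46000100, minus strand: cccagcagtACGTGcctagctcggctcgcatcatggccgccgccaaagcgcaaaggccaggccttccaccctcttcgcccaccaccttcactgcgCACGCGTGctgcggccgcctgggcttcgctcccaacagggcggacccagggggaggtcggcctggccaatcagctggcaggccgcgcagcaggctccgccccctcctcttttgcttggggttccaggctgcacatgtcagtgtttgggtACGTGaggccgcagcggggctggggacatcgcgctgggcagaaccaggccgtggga
Egln1, chr8:124949205-124949504, minus strand: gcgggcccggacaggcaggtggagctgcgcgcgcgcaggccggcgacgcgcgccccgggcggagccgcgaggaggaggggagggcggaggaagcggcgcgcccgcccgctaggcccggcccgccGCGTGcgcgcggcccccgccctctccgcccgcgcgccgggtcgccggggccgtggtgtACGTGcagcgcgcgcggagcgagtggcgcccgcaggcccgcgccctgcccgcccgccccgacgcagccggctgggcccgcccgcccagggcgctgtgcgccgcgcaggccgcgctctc
Egln3, chr12:54203825-54204124, minus strand: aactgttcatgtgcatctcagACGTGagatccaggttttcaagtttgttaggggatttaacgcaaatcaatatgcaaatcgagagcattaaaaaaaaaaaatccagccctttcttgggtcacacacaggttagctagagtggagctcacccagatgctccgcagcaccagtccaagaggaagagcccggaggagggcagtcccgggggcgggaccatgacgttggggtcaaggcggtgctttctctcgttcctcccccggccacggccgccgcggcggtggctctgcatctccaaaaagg
Car9, chr4:43506776-43507075, plus strand: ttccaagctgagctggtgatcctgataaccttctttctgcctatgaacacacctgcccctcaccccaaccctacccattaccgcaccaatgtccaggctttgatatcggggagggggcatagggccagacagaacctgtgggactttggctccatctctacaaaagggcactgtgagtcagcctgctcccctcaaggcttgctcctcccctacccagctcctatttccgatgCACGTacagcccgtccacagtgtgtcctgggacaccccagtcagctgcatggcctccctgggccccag
In Bnip3 the letters form a CACGTG, read as ACGTG on both strands, with its first base 108 bases upstream of the start. In Ankrd37 an ACGTG begins 6 bases upstream and another 241 bases upstream, and in Car9 the match begins 18 bases upstream. Egln1 and Egln3 have their ACGTG at 68 and 229 bases upstream. Of the 10 genes, 8 had a promoter in the RefSeq table, and 7 of these 8 held ACGTG in at least 1 window (Vegfa had 2 windows and held it in 1). Adm held no ACGTG but had GCGTG, which 5 of the 8 held. The windows of Ankrd37 and Hif1a, and the Vegfa window that held matches, belong to starts inside the annotated span of their genes. The other Vegfa window, at the outer start, held neither ACGTG nor GCGTG, so the counts for Hif1a and Vegfa rest on inner starts. At these inner starts of Hif1a and Vegfa, the bases after the start were not found in the gene's own GENCODE transcripts. Over all 32851 promoter windows of that length, 19.6% held ACGTG, 32.4% held GCGTG and 7.15% held CACGTG, whose letters overlap with those of ACGTG. A match is a description of letters and not evidence of binding.

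The libraries held 26.51 M to 27.99 M assigned reads. All 8 pluripotency markers checked were above 1 RPKM (reads scaled to gene length and library size) in every iPSC library and in ESC. The MEF library carried all 10 fibroblast markers above 1 RPKM, but it also had 157.7 RPKM of Pou5f1 and 88.2 RPKM of Sox2, while 5 of the 8 pluripotency markers had no read there. The library thus goes partly against its label, and every difference from MEF below is a difference from the library labelled MEF. Fibroblast markers were present in all cultures on feeder cells, with a summed level of 20.6% and 17.7% of MEF in PC iPSC 5 and 13, 12.4% and 19.2% in control iPSC 3 and 7, and 7.74% in ESC. Genes of chromosome 11 had a median 1.33-fold above the other iPSC lines in PC iPSC 5 and 1.18-fold above the iPSC lines in ESC. None of the 10 genes lies on chromosome 11. The 6 macrophage markers summed to 18.4 and 15.9 RPKM in PC iPSC 5 and 13, 18.0 and 12.5 RPKM in control iPSC 3 and 7, 67.8 RPKM in ESC and 599.2 RPKM in MEF. Of these sums Cd68 made up 55.2 RPKM in ESC, and Lyz2 463.3 RPKM in MEF, where Csf1r was at 23.6 RPKM and all 6 were above 1 RPKM. The 7 endothelial markers were mixed, with 3 above 1 RPKM in each iPSC library, 2 in ESC and 1 in MEF. Tek was the 1 above 1 RPKM in MEF, at 47.7 RPKM, against 4.21 to 6.84 RPKM in iPSC and 5.39 RPKM in ESC. Pecam1 was at 68.3 to 108.3 RPKM in iPSC, 76.2 RPKM in ESC and 0.0965 RPKM in MEF. Tie1 was at 1.76 to 4.73 RPKM in iPSC, 0.406 RPKM in ESC and 0.0368 RPKM in MEF. Cdh5 and Kdr were at 0.22 RPKM or less in iPSC and ESC. In bulk RNA fewer cells of a type and less RNA per cell cannot be told apart.

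Within iPSC the 10 genes fell into a high, a middle and a low set by RPKM, with Car9 apart below them. RPKM is a scale that allows comparison between genes of different length. Bnip3, Hif1a and Vegfa stood highest, at 46.3 ± 5.26, 42.5 ± 4.99 and 37.2 ± 2.19 RPKM (SD over 4 lines). The ranges of Bnip3 and Hif1a overlapped, as did those of Hif1a and Vegfa, so this order is within the spread. Adm, Ndrg1 and Egln1 followed at 10.1 ± 3.07, 9.84 ± 1.31 and 8.40 ± 0.511 RPKM, again with overlapping ranges. Epas1, Egln3 and Ankrd37 lay at 5.21 ± 0.355, 4.28 ± 0.793 and 3.86 ± 0.757 RPKM, each overlapping with the next, and Car9 was lowest at 1.02 ± 0.251 RPKM. Vegfa and Adm were separated by a gap, as were Egln1 and Epas1, and Ankrd37 and Car9. The middle and low sets nearly met, as Adm was lowest at 5.66 RPKM and Epas1 highest at 5.58 RPKM, both in control iPSC 3. The order was not the same elsewhere. Epas1, the ninth of the 10 in ESC, was the first in MEF, and Bnip3, the first in ESC, was the sixth in MEF.

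**Figure D1:**
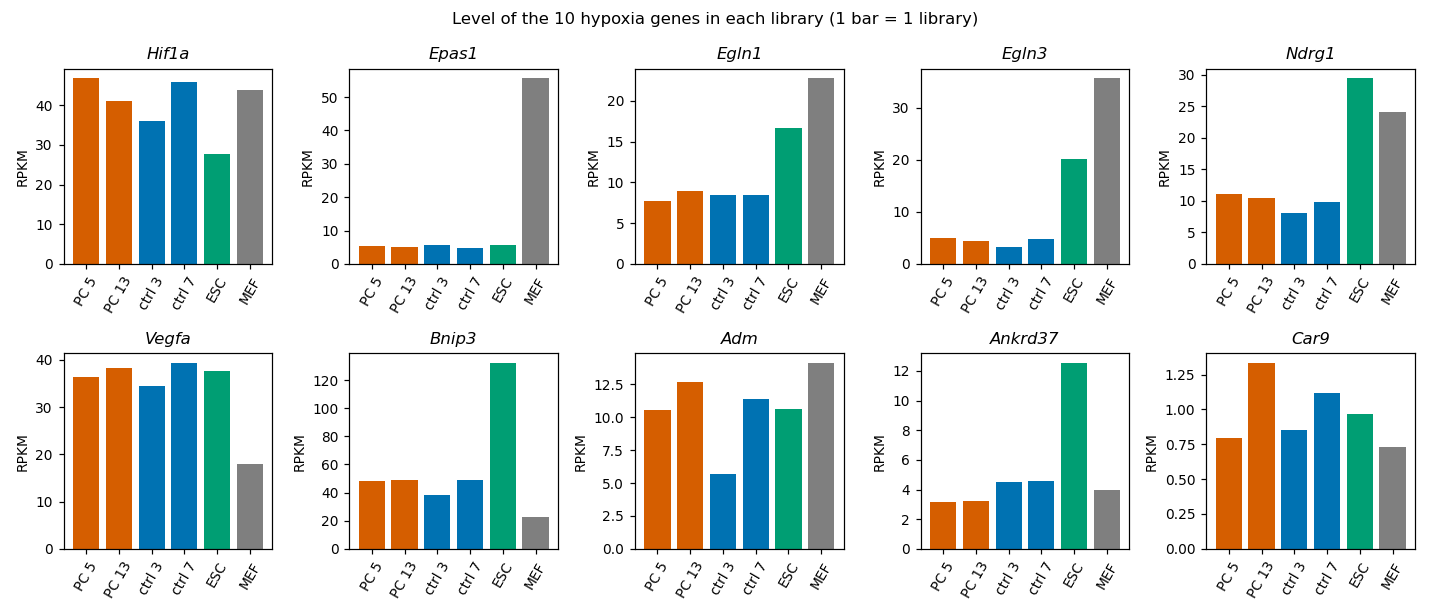
Bars give the level of each gene in RPKM (vertical axis from 0, own scale per gene) in each of the 6 libraries, PC iPSC in orange, control iPSC in blue, ESC in green and MEF in grey. Egln3, Ndrg1, Bnip3 and Ankrd37 are low in all 4 iPSC libraries beside ESC, Epas1 stands at 55.8 RPKM in MEF alone, and Vegfa is near 37 RPKM in iPSC and ESC alike.

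Between the 4 iPSC lines and ESC the sensors and several targets differed. Egln3, Ankrd37, Ndrg1, Bnip3 and Egln1 were lower in iPSC than in ESC, by 2.04-fold to 4.85-fold, while Vegfa, Adm, Car9, Epas1 and Hif1a did not pass the test. Thus 5 of the 10 genes were called lower and 0 higher, where edgeR called 5.71% of all 16435 tested genes lower, 4.71% higher and 10.4% in either direction. All 10 genes passed the filter on low counts. The median log2 difference of the 10 was -0.60, against 0.03 over all tested genes. Because the 10 were chosen with earlier results of these data known, their distance from these shares is a description and no test. The test is edgeR's quasi-likelihood test with Benjamini-Hochberg adjustment over all tested genes, and it assumes that the single ESC library varies like the iPSC lines. The 5 calls held without each iPSC line in turn, and they ended with limma on log2 RPKM over the default gene filter (adjusted p from 0.0593 to 0.0761), where limma called 11 genes in all with a pseudocount of 1 and 3 with 0.1.

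Among the oxygen sensors, Egln3, a prolyl hydroxylase that HIF induces strongly (chromosome 12, 54178981 to 54203874), had the largest difference. Its level was 4.94 and 4.35 RPKM in PC iPSC 5 and 13, 3.15 and 4.68 RPKM in control iPSC 3 and 7, 20.1 RPKM in ESC and 35.7 RPKM in MEF. Every iPSC library lay far below ESC, and ESC lay below MEF. The log2 fold change from ESC was -2.28 (SE 0.20, 95% interval -2.77 to -1.79, adjusted p = 0.00611), or 4.85-fold lower. Egln1, the main hydroxylase of HIF alpha in cells with oxygen (chromosome 8, 124908587 to 124949254), was at 7.75 and 9.0 RPKM in PC iPSC, 8.40 and 8.47 RPKM in control iPSC, 16.7 RPKM in ESC and 22.8 RPKM in MEF. The iPSC libraries did not overlap with ESC or MEF. Its log2 fold change from ESC was -1.03 (SE 0.15, adjusted p = 0.0170).

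Bnip3 encodes a mitochondrial outer membrane protein that tags mitochondria for mitophagy (chromosome 7, 138890836 to 138909506). It stood at 48.4 and 49.1 RPKM in PC iPSC 5 and 13, 38.4 and 49.2 RPKM in control iPSC 3 and 7, 132.3 RPKM in ESC and 22.5 RPKM in MEF. ESC was far above every iPSC line, and the iPSC lines were all above MEF. The log2 fold change from ESC was -1.56 (SE 0.16, adjusted p = 0.00744), or 2.94-fold lower. Its exons share 504 bases, or 22.2% of their length, with an antisense gene, and whether the counting used strand is not given in the sources used here.

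Ndrg1, a stress-induced differentiation gene of the alpha/beta hydrolase fold (chromosome 15, 66929318 to 66969641), was at 11.1 and 10.4 RPKM in PC iPSC, 8.07 and 9.77 RPKM in control iPSC, 29.5 RPKM in ESC and 24.1 RPKM in MEF. All 4 iPSC libraries lay below both ESC and MEF. The log2 fold change from ESC was -1.63 (SE 0.15, adjusted p = 0.00634), or 3.10-fold lower.

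Ankrd37, a small ankyrin repeat protein and HIF-1 target of unclear function (chromosome 8, 45996908 to 46000414), was at 3.17 and 3.24 RPKM in PC iPSC, 4.48 and 4.55 RPKM in control iPSC, 12.6 RPKM in ESC and 3.96 RPKM in MEF. ESC stood alone, with 323 reads against 81 to 114 in iPSC and 102 in MEF. The log2 fold change from ESC was -1.76 (SE 0.26, adjusted p = 0.0168), or 3.39-fold lower. Opposite-strand exons of Lrp2bp cover 22.7% of its exonic length and those of Ufsp2 cover 3.7%. Lrp2bp was at 0.13 RPKM or less in each library, and Ufsp2 ranged from 18.0 to 22.0 RPKM in iPSC with 20.5 RPKM in ESC. Antisense genes also overlap exons of Car9 (9.29% of its exonic length), Ndrg1 (6.35%) and Hif1a (5.6%), and the same limit on strand holds for them.

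The remaining 5 genes had levels in iPSC that could not be told from ESC by this test. Vegfa, the main endothelial growth factor (chromosome 17, 46016993 to 46032377), was at 36.5 and 38.4 RPKM in PC iPSC, 34.4 and 39.4 RPKM in control iPSC and 37.6 RPKM in ESC. ESC lay inside the iPSC range, and the 95% interval of the fold ran from 0.746 to 1.24 (adjusted p = 0.837), which does not include the folds of the 5 called genes. Hif1a (chromosome 12, 73901324 to 73947554) was at 46.9 and 41.1 RPKM in PC iPSC, 36.0 and 45.8 RPKM in control iPSC and 27.8 RPKM in ESC. All iPSC libraries were above ESC, but the log2 fold change of 0.57 (SE 0.19) had an edgeR adjusted p of 0.102. DESeq2 called it (0.57, adjusted p = 0.0381). Epas1 (chromosome 17, 86753864 to 86833410) was at 5.45 and 4.91 RPKM in PC iPSC, 5.58 and 4.89 RPKM in control iPSC and 5.70 RPKM in ESC. The 4 iPSC libraries were all slightly below ESC, with a log2 fold change of -0.17 (SE 0.15, edgeR adjusted p = 0.472).

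Adm and Car9 were too variable or too low for a narrow statement. Adm encodes adrenomedullin, a vasodilator peptide (chromosome 7, 110627657 to 110629820), and was at 10.6 and 12.7 RPKM in PC iPSC, 5.66 and 11.4 RPKM in control iPSC and 10.7 RPKM in ESC. Control iPSC 3 was the low library, and the interval of the fold from ESC ran from 0.493 to 1.68. Car9, a membrane carbonic anhydrase that exports acid and is a classic hypoxia marker (chromosome 4, 43507026 to 43513729), had 43 and 71 reads in PC iPSC, 46 and 58 in control iPSC and 53 in ESC, or 0.792 and 1.33, 0.850 and 1.12, and 0.969 RPKM. ESC lay inside the iPSC range for Car9, and the interval of the fold ran from 0.454 to 2.33. In all, the 4 iPSC libraries lay on the same side of ESC for 7 of the 10 genes, against 66.5% of all tested genes. Of these, 6 were below and 1 above, where 29.3% of tested genes were below and 37.3% above. An unadjusted edgeR p under 0.05 was found for 6 of the 10 genes, the 5 called and Hif1a, against 29.8% of tested genes.

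**Figure D2:**
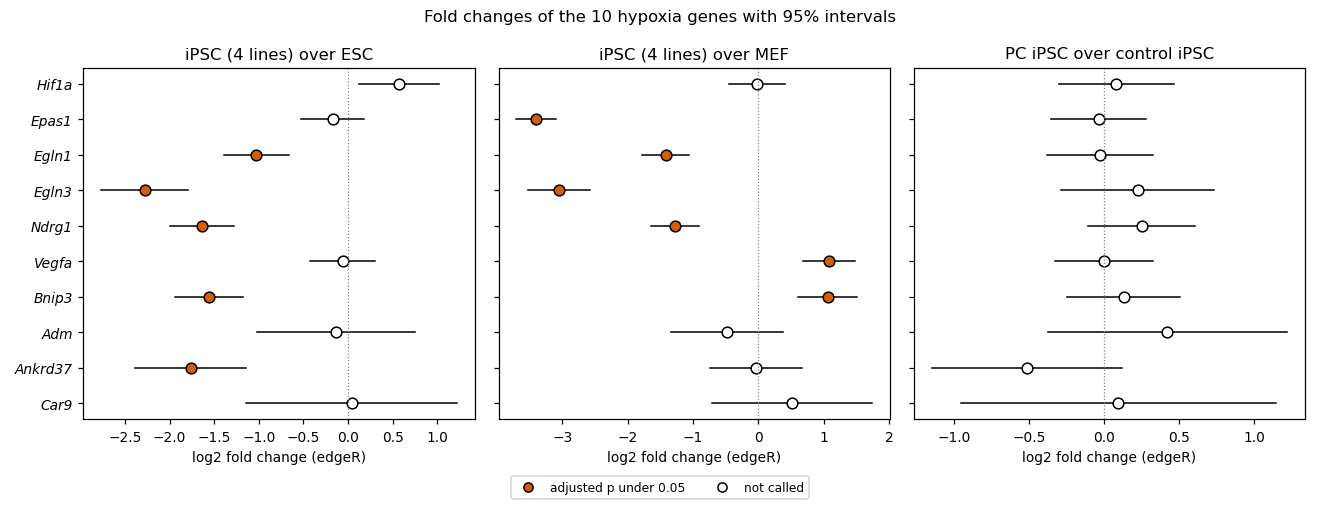
Points give the edgeR log2 fold change of each gene and lines its 95% interval, for the 4 iPSC lines over ESC, the 4 iPSC lines over MEF, and PC over control iPSC, with filled points for an adjusted p under 0.05. Egln1, Egln3, Ndrg1, Bnip3 and Ankrd37 lie left of 0 in the first panel, and every interval in the third panel crosses 0.

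The wider pathway was described through gene lists, which were also chosen with earlier results of these data known. Their counts are therefore no test of the lists against all genes. Of 21 genes of glucose uptake and glycolysis that HIF can induce, 12 were called lower in iPSC than in ESC and 0 higher (median log2 difference -0.71). Over all tested genes 5.71% were called lower and 4.71% higher. The glucose carrier Slc2a1 was at 61.1 ± 10.8 RPKM in iPSC (SD, n = 4) and 181.6 RPKM in ESC, and the lactate exporter Slc16a3 at 26.5 ± 4.16 RPKM in iPSC and 114.0 RPKM in ESC. Pgk1, a glycolytic kinase, was at 429.7 ± 33 RPKM in iPSC (SD, n = 4) and 971.8 RPKM in ESC. Aldoc and Aldoa, both aldolases, changed by -2.43 and -1.31, and Pdk1, a kinase that inhibits pyruvate dehydrogenase, by -1.28 on the log2 scale. Ldha and Pfkfb3 had differences of -0.53 and -0.61 that did not pass. Aldoc and Slc16a3 lie on chromosome 11.

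Of 31 other HIF target genes, 9 were called lower and 2 higher (median -0.50), against 5.71% and 4.71% of all tested genes. Lower were Bhlhe40, a transcription repressor (-1.86), Ero1l, which forms disulfides in the endoplasmic reticulum (-1.32), Narf (-1.32), Fam162a (-1.15) and the collagen prolyl hydroxylase P4ha1 (-0.80). Angptl4, a lipoprotein lipase inhibitor (1.23), and the vasoconstrictor Edn1 (2.22) were higher in iPSC. The mTOR inhibitor Ddit4 (-0.69), P4ha2 (-0.64), the mitochondrial protein Higd1a (-0.54), Bnip3l, the relative of Bnip3 (-0.27), and the histone demethylase Kdm3a (0.17) did not pass the test. Narf and P4ha2 lie on chromosome 11.

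The HIF machinery itself was split. Of 17 genes of HIF subunits and their regulation, 2 were called lower, 2 higher and 13 not (median 0.00). Hif3a, an alpha subunit that can oppose the other alpha subunits, was at 0.898 ± 0.212 RPKM in iPSC (SD, n = 4) and 3.59 RPKM in ESC, with an edgeR log2 fold change of -2.06 (SE 0.25, adjusted p = 0.0104). Arnt, the beta subunit, was at 25.1 ± 1.94 RPKM in iPSC (SD, n = 4) and 39.9 RPKM in ESC (-0.71, edgeR adjusted p = 0.0332). Tceb1, the elongin C of the VHL complex (0.93), and Os9, a lectin of the endoplasmic reticulum (0.69), were higher. Egln2 (-0.37), Vhl (-0.22) and the asparagine hydroxylase Hif1an (-0.05) did not pass. Among 19 receptors and relatives of the VEGF, adrenomedullin, Ndrg and Car genes, Vegfb (-0.98) was lower, Nrp1 (1.43) and Nrp2 (0.91), coreceptors of VEGF, were higher, and 16 did not pass (median -0.06). Kdr, the main VEGF receptor, was at 0.33 RPKM or less in each of the 6 libraries. Over all tested genes 5.71% were called lower, 4.71% higher and 10.4% in either direction.

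Without PC iPSC 5, the line with raised chromosome 11 genes, the called genes among the glucose, other target, regulation and receptor lists came to 13, 14, 5 and 4. Without control iPSC 3, the line with least fibroblast RNA, they came to 12, 16, 5 and 6. Without PC iPSC 13 they were 13, 11, 4 and 5, and without control iPSC 7 they were 12, 16, 7 and 7, against 12, 11, 4 and 3 with all lines. The calls over all genes also differed between these fits, at 2566 without PC iPSC 5, 2873 without control iPSC 3, 1781 without PC iPSC 13 and 2734 without control iPSC 7, against 1713 with all lines. With limma over the default gene filter 0 genes of each list were called. Nrp1 and Nrp2 stood at 60.5 and 26.6 RPKM in MEF, and summed fibroblast markers were higher in every iPSC library than in ESC, while summed macrophage markers were lower. The part of these other cells in the differences from ESC was not tested.

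**Figure D3:**
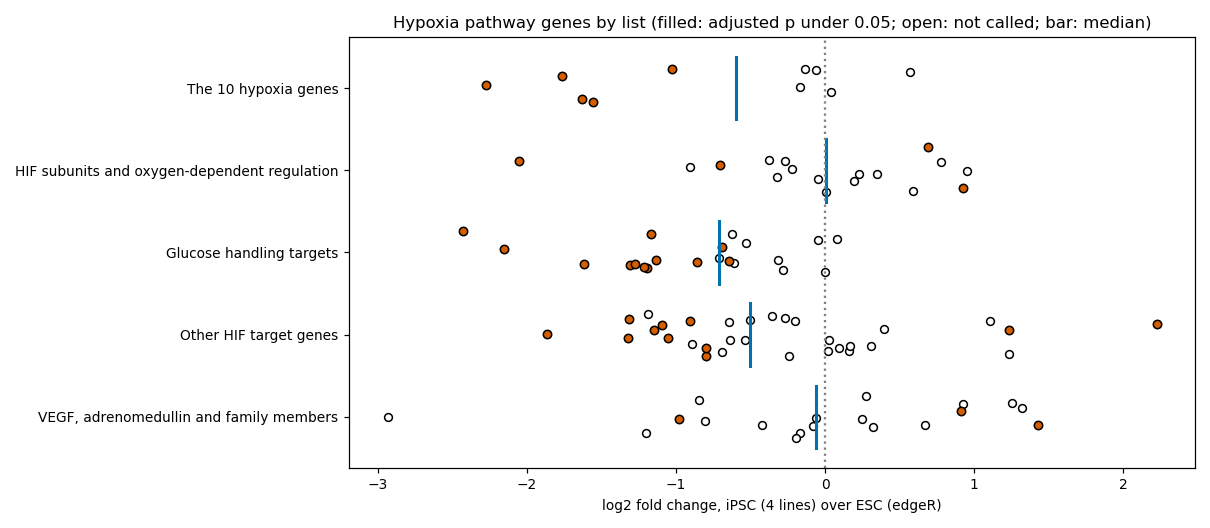
Each point is 1 gene, placed by its edgeR log2 fold change for the 4 iPSC lines over ESC (horizontal axis) and by its list (rows), filled where the adjusted p was under 0.05, with a bar at the list median. The medians stand at -0.60 for the 10 genes, 0.00 for HIF regulation, -0.71 for glucose handling, -0.50 for other targets and -0.06 for receptors and relatives.

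Against the library labelled MEF, Epas1, Egln3, Egln1 and Ndrg1 were lower in iPSC and Vegfa and Bnip3 higher. These are 4 called lower and 2 higher of 10, where 31.6% of all tested genes were called lower, 36.5% higher and 68.1% in either direction. Epas1, the alpha subunit known from endothelial and mesenchymal cells, was at 5.21 ± 0.355 RPKM in iPSC (SD, n = 4) and 55.8 RPKM in MEF, which was 10.6-fold lower (log2 -3.40, SE 0.13, edgeR adjusted p = 5.69e-06). Egln3 differed by -3.04 (SE 0.20), Egln1 by -1.42 (SE 0.15) and Ndrg1 by -1.28 (SE 0.15). Vegfa, at 17.9 RPKM in MEF, was higher in iPSC by 1.08 (SE 0.17) and Bnip3 by 1.06 (SE 0.19). Hif1a, at 43.8 RPKM in MEF, differed by -0.02 (interval of the fold 0.731 to 1.32). Ankrd37 (-0.03), Adm (-0.48, with 14.2 RPKM in MEF) and Car9 (0.51, with 40 reads in MEF) did not pass, and Adm passed without control iPSC 7, at -0.78 (adjusted p = 0.0101). The iPSC libraries lay on the same side of MEF for 8 of the 10 genes, against 89% of all tested genes. They were above it for 3 and below it for 5, where 47.3% of tested genes were above and 41.7% below.

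Because iPSC and ESC grew on fibroblasts, the levels of Epas1 and Egln3 are set beside the fibroblast markers. Epas1 stood at 9.77% and 8.81% of its MEF level in PC iPSC 5 and 13, 10.0% and 8.77% in control iPSC 3 and 7, and 10.2% in ESC. The median fibroblast marker was at 14.1% and 11.8% of MEF in PC iPSC, 8.42% and 13.3% in control iPSC, and 3.91% in ESC. Control iPSC 3 and ESC, with the lowest median fibroblast share, had the highest Epas1 shares. Egln3 stood at 13.8% and 12.2% of MEF in PC iPSC, 8.81% and 13.1% in control iPSC and 56.3% in ESC. Its order among the 4 iPSC lines was PC iPSC 5, control iPSC 7, PC iPSC 13 and control iPSC 3, from highest to lowest. The median fibroblast marker had the same order. So did Hif1a, which stood at 96.9% of MEF on average, so the order is not particular to Egln3. Ndrg1, Egln1, Adm, Hif1a, Ankrd37, Car9, Bnip3 and Vegfa stood at 36.8% of MEF or more on average over the iPSC lines. Summed macrophage markers stood at 3.06% and 2.66% of MEF in PC iPSC 5 and 13, 3.01% and 2.08% in control iPSC 3 and 7, and 11.3% in ESC. The median macrophage marker stood at 0.67% and 0.61% of MEF in PC iPSC, 1.09% and 0.51% in control iPSC, and 1.71% in ESC. The sum in ESC was mostly Cd68, which was at 148.3% of its MEF level there. The part of fibroblast or macrophage RNA in the differences from MEF was not tested.

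**Figure D4:**
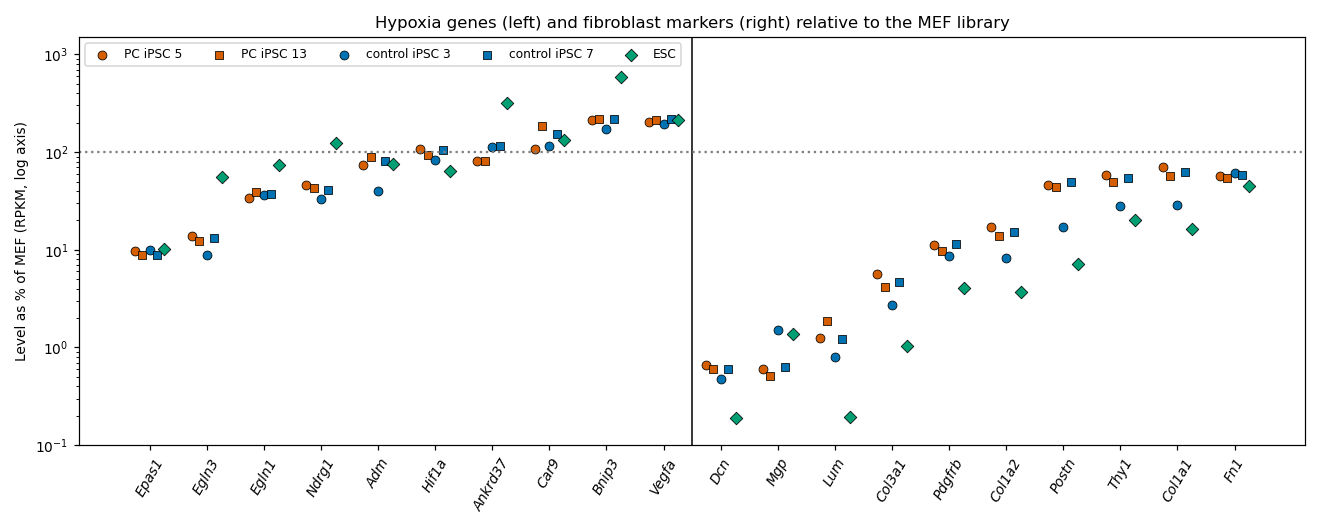
Points give the level in each iPSC library and ESC as a percent of the MEF level (log axis), for the 10 hypoxia genes left of the line and 10 fibroblast markers right of it. Epas1 lies near 10% in all 5 libraries, while Bnip3 and Ankrd37 in ESC stand at 587.1% and 317.3% of MEF.

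ESC and MEF, 1 library each, were compared without a test, as ratios with exact 95% intervals that cover counting error only. Bnip3 was 5.87 times as high in ESC as in MEF (5.51 to 6.26), Ankrd37 3.17 times (2.53 to 4.0), Vegfa 2.11 times (1.99 to 2.23) and Ndrg1 1.23 times (1.15 to 1.30). Lower in ESC were Epas1, at 0.102 of the MEF level (0.0951 to 0.110), Egln3 at 0.563 (0.528 to 0.599), Hif1a at 0.634 (0.609 to 0.661), Egln1 at 0.730 (0.685 to 0.779) and Adm at 0.753 (0.661 to 0.857). For Car9 the interval included equal levels (0.864 to 2.05). A change of at least 2-fold on RPKM + 1 was seen for 20.6% of tested genes upward and 20.2% downward.

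Between PC and control iPSC, a comparison named in the series design, none of the 10 genes was called. Over all genes edgeR called 0 of 16435, or 0%, and DESeq2 also called 0, while 385 genes, or 2.34%, had an unadjusted edgeR p under 0.05, none of the 10 among them. Ankrd37 came closest, at 3.17 and 3.24 RPKM in PC iPSC against 4.48 and 4.55 RPKM in control iPSC. Its pairs were tight and did not overlap, and the log2 difference was -0.52 (SE 0.27, 95% interval -1.15 to 0.12, unadjusted p = 0.0958, adjusted p = 0.963, edgeR). Ndrg1, at 11.1 and 10.4 RPKM in PC iPSC against 8.07 and 9.77 RPKM in control iPSC, was the other gene without overlap, with a difference of 0.25 (SE 0.15). Groups did not overlap for 2 of the 10 genes, against 31.4% of all tested genes (16.2% with PC iPSC above and 15.2% below).

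The intervals show what sizes remain possible. For Hif1a, Epas1, Egln1 and Vegfa the difference between PC and control iPSC lay between 0.767-fold and 1.38-fold at the widest bounds of the 4 intervals. Bnip3 ran from 0.844 to 1.42 and Egln3 from 0.820 to 1.66. Adm (0.770 to 2.33) and Car9 (0.516 to 2.21) were the least certain. For both, a level 2-fold higher in PC iPSC could not be told from no difference at this depth and spread. For the 4 pathway lists this comparison gave 0 calls by edgeR, and medians ran from -0.07 to 0.18 on the log2 scale against 0.09 for the 10 genes and 0 for all tested genes. Without control iPSC 7, where control iPSC 3 was the only control line, 3 other target genes and 1 of the receptor list were called, Adm differed by 1.02 (adjusted p = 0.0741) and edgeR called 309 genes, none of the 10 among them.

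One line stood apart for several of these genes. Control iPSC 3 was the lowest of the 4 lines for Hif1a, Egln3, Ndrg1, Vegfa, Bnip3 and Adm, 6 of the 10 genes, and the highest for Epas1. Over 12171 genes with a mean of at least 1 RPKM in iPSC this line was lowest for 28.5%. The deviations in control iPSC 3 from the mean of the 4 lines ran from -0.77 (Adm) to 0.24 (Ankrd37) on the log2 scale, with a median of -0.23, while the medians of the other lines lay between 0.07 and 0.11. Summed fibroblast markers were also lowest in control iPSC 3, at 12.4% of MEF against 17.7% to 20.6% in the other lines. Among these markers Fn1 (417.3 RPKM) and Mgp (25.2 RPKM) were highest in this line, while the others were lowest in it. The part of fibroblast RNA in these values was not tested. Adm had the widest spread, 2.24-fold between its highest and lowest line, and Epas1 and Vegfa the narrowest, 1.14-fold each.

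**Figure D5:**
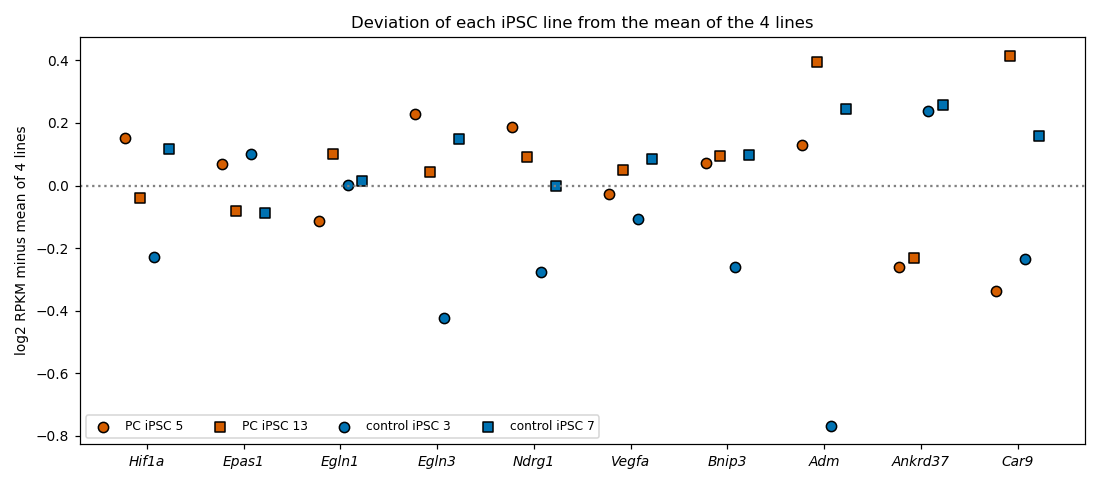
Points give the log2 RPKM of each gene in each iPSC line minus the mean of the 4 lines, PC iPSC in orange and control iPSC in blue. Control iPSC 3 lies lowest for 6 genes and reaches -0.77 for Adm, and the PC and control pairs separate clearly for Ankrd37.

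Genes with the most similar profile over the 6 libraries were sought among 8736 genes by Pearson's r of log2(RPKM + 1), a description in which the shared libraries set much of the value. For Epas1 they were Elf1, Lrp6 and Dnmt3a (r = 0.999 each), all high in the library labelled MEF. For Ankrd37 they were Wdfy1 (0.985), Fbln1 (0.982) and Man2c1 (0.979), all highest in ESC. For Car9, whose range was small, Casp6 (0.913), Adgre5 (0.907) and Dnaja2 (0.897) came closest.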

How the data were processed

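Per its headers, the deposited table gives for each gene a count of unique reads and an RPKM value, both made by the authors. A dash stands for no read and was read as 0. Counts summed to the total in each header and matched the per-library tables, with 0 differing. RPKM of the 10 genes followed from count, length and total within 4e-15. The submitters' processing notes name CASAVA 1.8.2 and the build mm10. Aligner, counter, annotation and strand setting: not given in the sources.

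The main test was edgeR 4.0.16 under R 4.3.3 (quasi-likelihood on the counts, TMM scaling, default filter, 16435 genes) in 1 model of 4 group means over 6 libraries. This left 2 residual degrees of freedom, both from iPSC lines, and the intervals come from the fit's standard errors. The p-values were adjusted by Benjamini-Hochberg across the whole table and called under 0.05. Alternatives used DESeq2 1.42.0, limma 3.58.1, other scalings and filters, and each iPSC line left out. Depth was 26.51 M to 27.99 M reads, so that 3 reads, the limit a count of 0 allows, are 0.107 to 0.113 CPM.

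All 10 genes are described. From the lists a fixed set is named, with the 3 further called genes of largest change per list and direction. Members and lists were chosen with earlier results of these data known. Positions are on GRCm38 from RefSeq, matched by gene ID, and overlaps are from GENCODE on the same build.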

Additional observations from a re-analysis of the deposited data

Results flagged for a closer look

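Bnip3 in control iPSC 3, at 38.4 RPKM, lay far from the other 3 iPSC lines, which stood between 48.4 and 49.2 RPKM. The gap to the nearest line was 0.922 of the whole range, above Dixon's 95% critical value for 4 samples. It was the 1 gene of 28 examined that passed, and chance flags about 1 in 20 groups. Without control iPSC 3 the log2 fold change of Bnip3 from ESC was -1.49.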

How the results depend on the processing

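No paired analysis was possible because the groups share no replicate numbers. The count of 5 genes called lower in iPSC than in ESC was 5 to 6 under every edgeR and DESeq2 alternative, the sixth being Hif1a by DESeq2, and 5 without each line. It was 0 with limma on log2(RPKM + 1) and on log2(RPKM + 0.1), where all-gene counts were 11 and 3 against 1713. With limma over genes of a mean RPKM of at least 1, chosen after seeing the data, it was 5 of 9, with 1116 genes called. Without the MEF library, also chosen then, it was 5. All-gene counts from ESC ran from 1781 to 2873 leaving out a line, the highest without control iPSC 3 (2873) and control iPSC 7 (2734). Of the genes called from ESC, 55.3% were higher in iPSC by DESeq2, against 45.2% by edgeR. For the genes called against MEF with all lines, leaving out a line gave log2 differences of the same sign. They ran from -3.467 to -3.357 for Epas1, -3.204 to -2.934 for Egln3 and -1.488 to -1.375 for Egln1. Ndrg1 ran from -1.352 to -1.23, Vegfa from 1.026 to 1.108 and Bnip3 from 0.9602 to 1.123. Leaving out a line for PC against control iPSC called 0 to 309 genes, the 309 without control iPSC 7.

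Signs turned only for genes that were not called. Leaving out a line moved the PC difference over -0.031 to 0.33 for Bnip3, -0.36 to 0.45 for Car9, -0.17 to 0.10 for Egln1, -0.029 to 0.55 for Egln3, -0.12 to 0.064 for Epas1, -0.076 to 0.27 for Hif1a and -0.091 to 0.11 for Vegfa. Vegfa, at -0.0021 with all lines, was also 0.0023 with DESeq2 and with RLE factors, 0.0058 without a filter, 0.0062 with a mean RPKM of at least 1, 0.022 with limma at a pseudocount of 1 under either filter and 0.023 at 0.1. From ESC, Adm ran from -0.44 to 0.053 and Car9 from -0.19 to 0.19, and from MEF Hif1a ran from -0.12 to 0.037. The cause of these changes was not tested. Under any alternative that kept all libraries, the largest median of per-gene shifts from the main fit was -0.0966 on the log2 scale. That shift was in the difference from MEF, with genes of a mean RPKM of at least 1.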

Other observations

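Against the library labelled MEF, the pathway lists differed in direction. The genes named here were chosen after their values were seen. Of 21 genes of glucose handling, 15 were called higher in iPSC and 3 lower, where 36.5% and 31.6% of all tested genes were. Slc2a3, a high-affinity glucose carrier, stood at 417.6 ± 26.2 RPKM in iPSC (SD, n = 4) and 2.69 RPKM in MEF, and Hk2, a hexokinase, at 37.9 ± 6.22 RPKM in iPSC and 4.94 RPKM in MEF. Of 31 other HIF target genes, 9 were higher and 15 lower, among them Igfbp3, a binding protein of insulin-like growth factors, at 6.61 RPKM on average in iPSC and 838.3 RPKM in MEF. Of 19 receptors and relatives 3 were higher and 9 lower, and of 17 regulators 4 and 6. Arnt2, a relative of Arnt known from neural tissue, was at 0.766 RPKM on average in iPSC and 12.4 RPKM in MEF.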
